A study of Homo sapiens with 6 samples.

Results

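The ADAM and ADAMTS genes encode zinc metalloproteinases related to the snake venom reprolysins, together with a set of ADAMTS-like relatives that have no proteinase domain. Members were taken as every listed gene whose symbol starts with ADAM, ADAMTS or ADAMTSL followed by a digit, with antisense loci left out. This gave 34 of 18539 listed genes, 13 of them ADAM, 17 ADAMTS and 4 ADAMTSL. They include 33 of the 44 protein-coding genes that GENCODE 29 annotates under these names, and the other 11 were not analysed here. The cells were A375, an established melanoma line of human origin with an activating BRAF mutation, grown in Dulbecco's modified Eagle's medium with fetal bovine serum. Both groups had been infected with a pLKO.1 lentivirus in the presence of polybrene and selected with puromycin for 2 weeks, so that vector, infection and selection were shared. The control group (shControl, 3 libraries) carried a control short hairpin RNA whose sequence the labels do not give. The other group (shMMP9, 3 libraries) carried 1 hairpin against the coding region of matrix metalloproteinase 9 (MMP9), a secreted gelatinase. With a single hairpin, loss of MMP9 and any other effect of that hairpin cannot be told apart, and no label says that the replicates came from separate cultures, so p-values reflect only how far these libraries differ, and that difference may be technical.

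ADAM proteins sit in the cell membrane and carry a metalloproteinase, a disintegrin and a cysteine-rich domain. The active ones, ADAM10 and ADAM17 above all, release the outer parts of other membrane proteins, among them growth factor precursors, Notch and adhesion molecules, and several ADAM proteins have lost the zinc-binding motif and act in adhesion. ADAMTS enzymes are secreted, bind the extracellular matrix through thrombospondin type 1 repeats, and cut aggrecan and versican, procollagen ends, von Willebrand factor or other matrix proteins, while ADAMTS-like proteins keep the binding domains only.

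The hairpin target is shown first because the whole contrast rests on it. Capitals mark the stretch that also occurs in an annotated transcript of the gene named, read 5′ to 3′.
MMP9: CATTCAGGGAGACGCCCATTT
ADAMTSL4: cattCAGGGAGACGCCCattt
ADAMTS17: cattcagggAGACGCCCATtt
All 21 bases occur in MMP9. Among the members, the longest shared stretch was 13 bases in ADAMTSL4, from target base 5 to base 17, and the next longest was 10 bases in ADAMTS17. The median over members was 8 bases, equal to the median of 8 over 17171 tested genes with an annotated transcript. A stretch of 13 bases or more was found in 12 tested genes (0.0699%), MMP9 and ADAMTSL4 among them. Of the 11 such genes other than MMP9, 5 were lower in shMMP9 (45.5%, against 32.5% of all genes tested). Another 2 were higher, against 25.0% of all genes tested. The 11 include ADAMTSL4, whose own stretch set the cut of 13. The other 19 members that were lower shared fewer than 13 bases with the target, but every member shared at least 7. Only the length of the longest stretch was compared between genes, not its place in the target. These matches describe letters only, and whether any of these transcripts was bound by the hairpin was not tested.

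Promoter sequence is shown for the member that fell most on the scale used here, ADAMTS6, and for ADAM19 and ADAM23, the ADAM genes that rose most. ADAMTS9, the member that rose most, had no promoter entry. Only windows that lie wholly outside the gene as GENCODE 29 draws it are printed. Each window is the 250 bases before the gene's start in RefSeq on GRCh38.p14. Capitals mark GGAATG, the core bound by TEAD factors, CACGTG, the E-box bound by MYC and MITF, or TGANTCA, the AP-1 element, on either strand. The windows are chr5:65481921-65482170 on the minus strand for ADAMTS6, chr5:157575776-157576025 on the minus strand for ADAM19 and chr2:206443282-206443531 on the plus strand for ADAM23.
ADAMTS6: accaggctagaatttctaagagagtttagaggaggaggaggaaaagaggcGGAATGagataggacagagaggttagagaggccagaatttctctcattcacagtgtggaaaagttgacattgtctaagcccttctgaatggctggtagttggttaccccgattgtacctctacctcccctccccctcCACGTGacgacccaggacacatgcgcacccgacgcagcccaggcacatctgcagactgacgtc
ADAM19: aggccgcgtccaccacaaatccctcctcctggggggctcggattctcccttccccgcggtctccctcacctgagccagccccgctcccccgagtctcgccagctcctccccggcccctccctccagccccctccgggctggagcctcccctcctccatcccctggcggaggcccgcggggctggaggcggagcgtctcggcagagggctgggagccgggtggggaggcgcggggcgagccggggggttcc
ADAM23: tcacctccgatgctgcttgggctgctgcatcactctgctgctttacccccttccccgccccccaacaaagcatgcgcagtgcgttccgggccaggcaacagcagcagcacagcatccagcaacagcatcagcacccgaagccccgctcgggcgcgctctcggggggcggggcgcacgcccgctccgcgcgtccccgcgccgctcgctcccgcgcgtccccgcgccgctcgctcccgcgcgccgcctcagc
The ADAMTS6 window held GGAATG and CACGTG, and the windows of ADAM19 and ADAM23 held none of the 3 motifs. The windows of ADAMTSL1 and ADAMTSL4, which fell and are not printed, held none of them either. GC content was 52.4% for ADAMTS6, 76.4% for ADAM19 and 73.6% for ADAM23. Among other members that fell, it was 54.8% for ADAMTSL1, 68.4% for ADAMTS12 and 83.6% for ADAMTSL4. Of 24 members with a promoter entry, 4 held GGAATG (ADAM17, ADAMTS6, ADAMTS12 and ADAMTS20), against 11.9% of 27305 promoters. CACGTG was found in 3 members (ADAM10, ADAMTS6 and ADAMTS17), against 6.5% of promoters, and TGANTCA in ADAMTS12 alone, against 6.6%. RefSeq and GENCODE place some starts differently, so that 16 of the 24 windows reach into the gene as GENCODE 29 draws it, among them that of ADAMTS12 with 202 of its 250 bases. A match is a description of the letters in these windows, and binding was not measured.

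Levels are given as scaled counts, which are gene counts brought to a common upper quartile across libraries. A change is the mean log2(scaled count + 1) of shMMP9 less that of shControl, and this scale understates the change of weakly expressed genes. A gene was called where limma's adjusted p over 17194 tested genes was under 0.05. Libraries held an estimated 21854123 to 28005552 reads. MMP9 itself stood at 26.1, 24.3 and 28.7 in shControl and at 16.2, 14.6 and 17.1 in shMMP9. The groups did not overlap, and MMP9 fell by 0.69 in log2 units (SE 0.0847, adjusted p = 1.25e-05, limma). The library shControl replicate 1 stood furthest from its group, and mitochondrially encoded genes took 1.64 to 1.79% of reads in shControl and 0.617 to 0.708% in shMMP9. The part of shControl replicate 1 in the results below was tested only by leaving that library out. The mitochondrial share differed between the groups in every library, so its part cannot be told apart from the group difference and was not tested. SOX10, a regulator of the melanocyte lineage, averaged 378 ± 18.4 across shControl and 785 ± 40.6 across shMMP9 libraries (SD, n = 3), whereas the pigment genes MLANA and TYRP1 were close to the lowest listed level. Summed markers of the melanocyte lineage (6 of 8 listed) ran from 404 to 442 in shControl and from 804 to 883 in shMMP9, most of it SOX10. S100B was also higher, whereas MITF was lower (35.5 ± 2.48 and 27.7 ± 0.876) and PMEL was not called. Fibroblast markers (6 of 6) summed to 27.3 to 28.9 and 11.9 to 13.1, and endothelial markers (6 of 6) to 55.9 to 64.8 and 22.1 to 25.7, of which TIE1 alone made up 49.9 ± 3.41 in shControl and 4.56 ± 0.617 in shMMP9. In these lists PDGFRA (2.16 ± 0.681 and 5.46 ± 0.694), KDR (6.44 ± 0.414 and 16.1 ± 0.537) and PECAM1 were higher in shMMP9, against the direction of the sums. Keratinocyte markers (3 of 6) summed to 70.0 to 81.6 and 127 to 136, most of it KRT10. KRT14 was also higher (4.04 ± 0.482 and 19.7 ± 1.53). KRT5, too weak to be tested, went the other way (0.370 ± 0.105 and 0.0367 ± 0.00304). Leukocyte markers (2 of 6) reached at most 2.91 and 7.69, and PTPRC was not analysed here. In bulk RNA, fewer cells expressing a gene and less RNA per cell cannot be told apart.

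The secreted branches, ADAMTS and ADAMTSL, were lower in total in every shMMP9 library, whereas the totals of the membrane-bound ADAM branch overlapped between groups although its single genes moved in both directions. The 34 members together held 0.101 to 0.105% of reads in shControl and 0.0815 to 0.0834% in shMMP9. Summed over the 13 ADAM genes, the scaled count was 594.7 ± 23.9 for shControl and 603.6 ± 4.16 for shMMP9 (mean ± SD of 3 libraries each), and the groups overlapped. Summed over the 17 ADAMTS genes it was 248.4 ± 7.43 in shControl and 95.6 ± 3.40 in shMMP9. The 4 ADAMTSL genes summed to 87.5 ± 0.737 and 16.3 ± 1.73. For both secreted branches the groups did not overlap, with all shMMP9 sums the lower. These sums carry no test, since a few well-expressed genes set them.

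**Figure D1:**
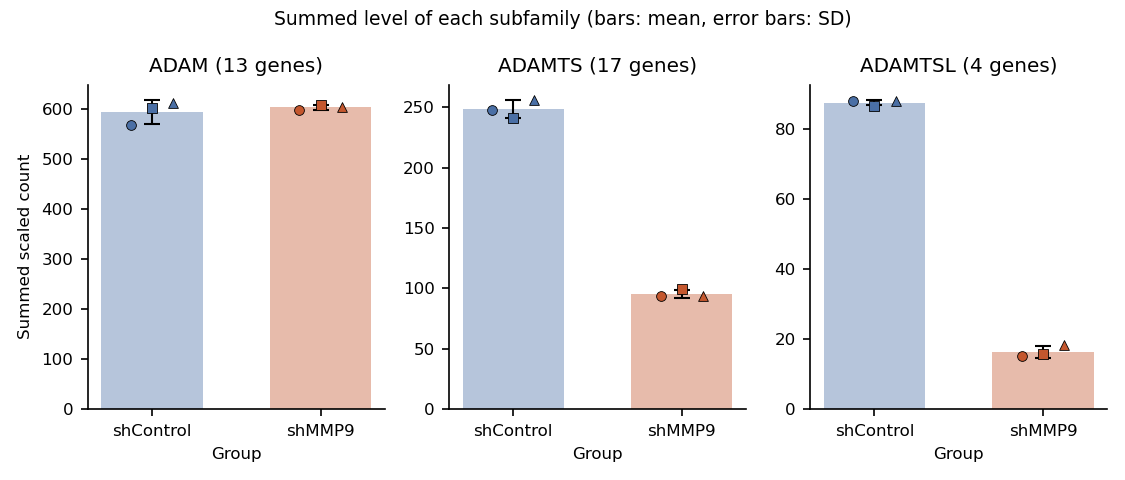
Summed scaled count of the ADAM, ADAMTS and ADAMTSL genes in each library, with bars at the group mean from 0, points for the 3 libraries of each group and error lines of 1 SD. The ADAM sums of the groups overlap at 568 to 613 and 599 to 608, whereas the ADAMTS and ADAMTSL sums of shMMP9 lie below every shControl library.

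Of the 34 members, 31 had enough reads to be tested. In shMMP9, 8 of the 31 were higher, against 25.0% of all genes tested, and 20 were lower, against 32.5% of all genes tested. ADAM32, ADAMTS4 and ADAMTS16 were not called. The median log2 change was -0.57 over the tested members and -0.05 over all genes. A change of 1 or more on the log2(scaled count + 1) scale was called upward for 1 member, ADAMTS9 (3.22% of all genes), and downward for 7 (4.96% of all genes), which were ADAM11, ADAMTS1, ADAMTS6, ADAMTS10, ADAMTS12, ADAMTSL1 and ADAMTSL4. By the ratio of mean scaled counts, which this scale shrinks for weak genes, the called members ADAMTS5 (16.6), ADAMTS19 (13.2), ADAMTS2 (6.07) and ADAMTSL3 (2.48) were also more than 2-fold lower, and ADAMTS17 was 2.14 times higher. The groups did not overlap for 28 of the 31, against 62.7% of all genes. ADAM32, ADAMTS2, ADAMTS5 and ADAMTS19 reached the read minimum through shControl alone, so these 31 are not a neutral sample of the family. Among the 18 members with a mean scaled count of 5 or more over all libraries, 6 were higher and 12 lower, with a median of -0.50. The same cut over all genes kept 11490, of which 29.6% were higher and 34.5% lower, with a median of -0.02. Among the tested members, ADAM17, ADAM19, ADAMTS4, ADAMTS7, ADAMTS9, ADAMTS13 and ADAMTSL4 overlap other listed genes. With the strand setting of the counting unknown, reads of such neighbours cannot be told apart. Without shControl replicate 1, 6 of the 31 were higher and 21 lower.

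**Figure D2:**
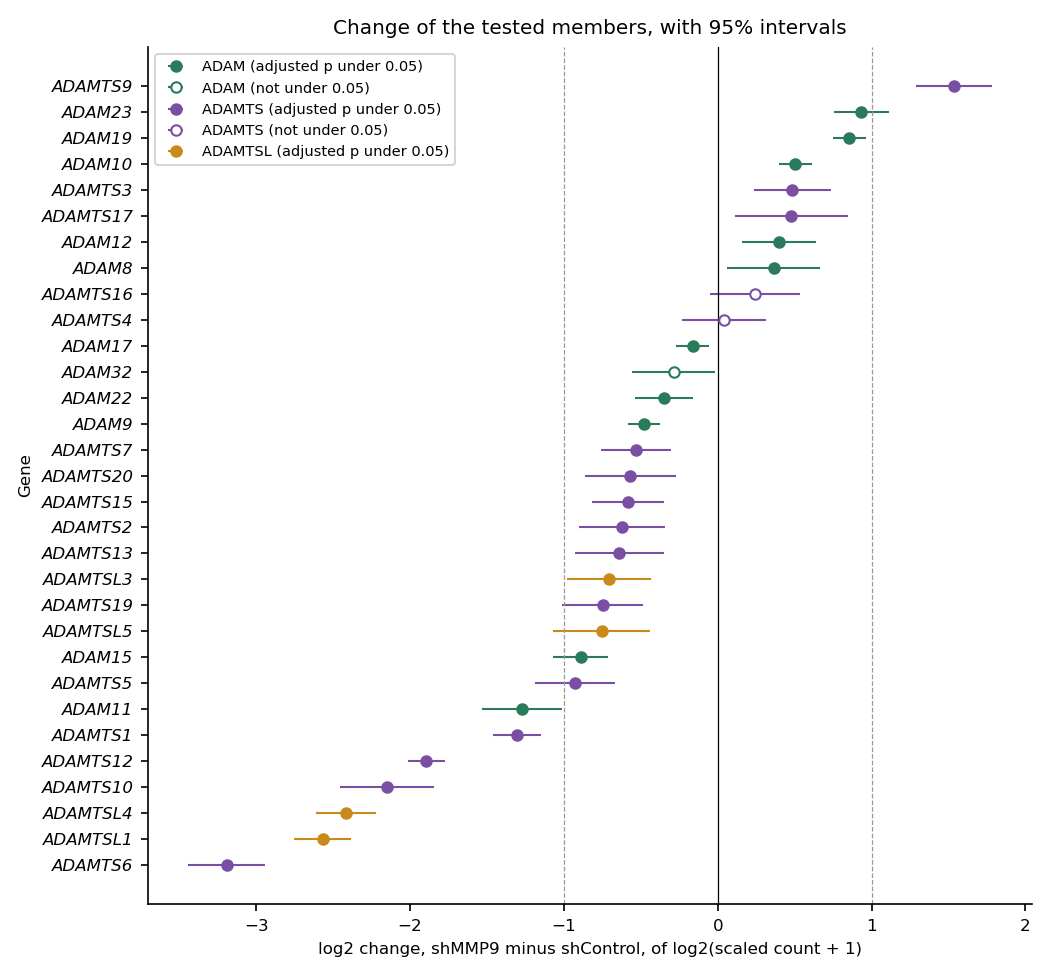
Log2 change (shMMP9 minus shControl) of each tested member with its 95% interval, ordered by size and coloured by branch, with filled points for an adjusted p under 0.05, a line at 0 and dashed lines at 1 and -1. The 4 ADAMTSL genes and most ADAMTS genes lie to the left of 0, from -3.19 for ADAMTS6 upward, and ADAMTS9 stands alone beyond 1 on the right at 1.54.

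Among the ADAM proteinases, 4 of 7 tested members rose and 3 fell, against 25.0% and 32.5% of all genes, with a median of 0.36. That median is the change of ADAM8, a weakly expressed gene. The calls of ADAM8 and ADAM17 were each lost under some alternatives. ADAM10, the constitutive sheddase of Notch, N-cadherin and the amyloid precursor protein (ENSG00000137845.14, chromosome 15, 58588807 to 58749978, minus strand, GRCh38), was at 114.9, 115.2 and 119.0 in shControl and at 165, 174 and 158 in shMMP9. Every shMMP9 library was higher. ADAM10 rose by 0.50 (SE 0.0496, adjusted p = 1.54e-06, limma).

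ADAM19, also called meltrin beta and known as a sheddase of neuregulin, lies on chromosome 5 from 157395534 to 157575775 on the minus strand. It was at 79.7, 87.1 and 84.0 in shControl and at 154, 147 and 156 in shMMP9. The 2 groups were far apart and tight, and ADAM19 rose by 0.86 (SE 0.0508, adjusted p = 1.04e-08, limma). This was the largest rise among the ADAM proteinases tested.

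ADAM12, or meltrin alpha, which cuts insulin-like growth factor binding proteins, rose from 7.21 ± 0.982 to 9.78 ± 0.633 (log2 change 0.40, adjusted p = 0.0075, limma). ADAM8, better known from leukocytes, was weakly expressed at 1.34 ± 0.326 and 2.00 ± 0.256. Its call (log2 change 0.36, adjusted p = 0.0399, limma) did not hold without shControl replicate 1 (0.0713), shControl replicate 3 (0.157), shMMP9 replicate 1 (0.125) or shMMP9 replicate 3 (0.103), nor with the replicate number as a block (0.0559) or by limma-voom (0.0586).

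ADAM15, which carries an integrin-binding RGD motif in its disintegrin domain, lies on chromosome 1 from 155050566 to 155062775 on the plus strand. Its scaled counts were 129, 167 and 163 in shControl and 78.9, 79.3 and 86.6 in shMMP9. The first control library was the lowest of its group and still above all shMMP9 libraries. ADAM15 fell by 0.89 (SE 0.0829, adjusted p = 9.02e-07, limma), and by 1.01 without shControl replicate 1.

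ADAM9, a broadly expressed membrane proteinase, was at 124, 119 and 129 in shControl and at 86.9, 89.5 and 89.1 in shMMP9. No library of one group came near the other. The gene (chromosome 8, 38996869 to 39105144, plus strand) fell by 0.48 (SE 0.0487, adjusted p = 2.16e-06, limma). Its direct neighbour ADAM32, a testis-enriched gene 1.8 kb away, was at 0.522 ± 0.129 and 0.245 ± 0.0474, a log2 change of -0.29 with a 95% interval of -0.56 to -0.02 (adjusted p = 0.0662, limma).

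ADAM17, the sheddase of tumour necrosis factor and of several ligands of the epidermal growth factor receptor, differed least among the strongly expressed members. It was at 74.3, 72.3 and 75.8 in shControl and at 66.1, 67.9 and 64.4 in shMMP9. The groups did not overlap but lay close together. It fell by 0.16 (SE 0.0497, adjusted p = 0.0125, limma), and the call was lost without shControl replicate 3 (0.0528), without shMMP9 replicate 3 (0.0503), under median-of-ratios scaling (0.0718) and under total-read scaling (0.0893).

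**Figure D3:**
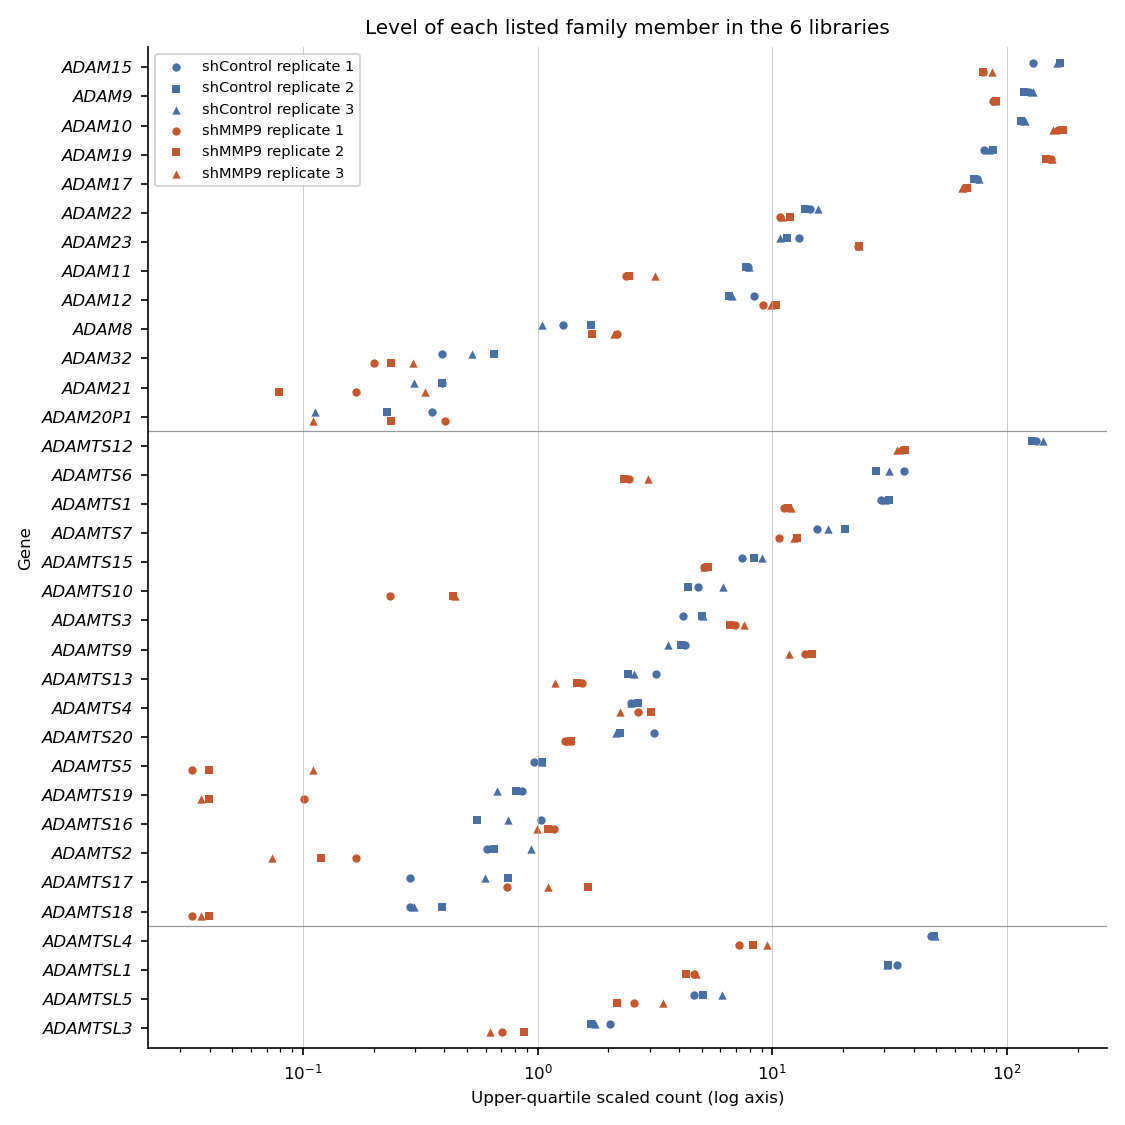
Scaled count (horizontal, log axis) of each of the 34 members (vertical, ordered within its branch) in the 6 libraries, with colour for the group and marker shape for the replicate number. ADAM10, ADAM19, ADAM23 and ADAMTS9 sit higher in shMMP9, and ADAMTS6 drops from 27.8 to 36.5 in shControl to 2.34 to 2.96 in shMMP9.

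The ADAM members that lack proteinase activity moved apart. ADAM11, ADAM22 and ADAM23 are best known as neuronal receptors of the secreted LGI proteins. ADAM23 was at 12.9, 11.5 and 10.8 in shControl and at 23.2, 23.4 and 23.3 in shMMP9, with all shMMP9 libraries higher. It rose by 0.93 (SE 0.0828, adjusted p = 5.56e-07, limma).

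ADAM11 was at 7.84, 7.70 and 7.95 in shControl and at 2.38, 2.46 and 3.18 in shMMP9, the reverse order. It fell by 1.27 in log2 units (SE 0.120, adjusted p = 1.06e-06, limma). ADAM22 fell less, from 14.6 ± 0.909 to 11.3 ± 0.571 (log2 change -0.35, adjusted p = 0.00376, limma). Of the LGI ligands, LGI2 and LGI4 could be tested and neither was called, with both under a scaled count of 1 in each group. ADAM21 and the pseudogene ADAM20P1, whose spans overlap on chromosome 14, had 2 to 12 estimated reads per library and were not tested.

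Among the ADAMTS proteoglycanases, which cut versican and aggrecan, 4 of 6 tested members fell and 1 rose, against 32.5% and 25.0% of all genes. ADAMTS5, among the 4, was tested only because shControl reached the read minimum. ADAMTS1 (chromosome 21, 26835747 to 26845409, minus strand), also known for restraining blood vessel growth, was at 28.97, 31.5 and 30.2 in shControl and at 11.2, 11.6 and 12.0 in shMMP9. The spread within each group was small beside the gap between them. ADAMTS1 fell by 1.30 (SE 0.0733, adjusted p = 6e-09, limma).

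ADAMTS5, a major aggrecanase of cartilage, lies 72.5 kb from ADAMTS1 and was near the lowest listed level. Its estimated reads were 27, 32 and 28 in shControl and 1, 1 and 3 in shMMP9, and it fell by 0.93 on the log2 scale (adjusted p = 2.09e-05, limma), with -0.30 at a pseudocount of 4 and -3.82 by limma-voom. In depth-scaled reads the summed shMMP9 level was 0.0600 times that of shControl, with an exact 95% interval of 0.0190 to 0.145 that covers counting error only. The lowest value in the table may be 1 read or an added constant, which cannot be told from the values.

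ADAMTS15 fell from 8.28 ± 0.813 to 5.18 ± 0.115 (log2 change -0.58, adjusted p = 0.000453, limma). ADAMTS20, known from a mouse pigmentation mutant in which melanoblasts fail to spread through the skin, fell from 2.51 ± 0.539 to 1.35 ± 0.0405 (log2 change -0.57, adjusted p = 0.00294, limma). ADAMTS4, the other main aggrecanase, was at 2.55 ± 0.0963 and 2.66 ± 0.400, a log2 change of 0.04 with a 95% interval of -0.24 to 0.31 (adjusted p = 0.811, limma).

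ADAMTS9, the closest homologue of ADAMTS20, was the exception. It was at 4.24, 4.09 and 3.58 in shControl and at 13.8, 14.8 and 11.8 in shMMP9. Each shMMP9 library exceeded each shControl library, and the ratio of means was 3.39. ADAMTS9 (chromosome 3, 64515654 to 64688000, minus strand) rose by 1.54 (SE 0.113, adjusted p = 9.06e-08, limma). Its antisense neighbour ADAMTS9-AS2, outside the rule, went from 0.428 to 0.873 (log2 change 0.40, adjusted p = 0.0310, limma).

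ADAMTS7 and ADAMTS12, a pair of closely related enzymes that cut cartilage oligomeric matrix protein, both fell. ADAMTS12 was the most abundant ADAMTS gene in shControl, per length too, at 133, 128 and 142, and stood at 35.6, 36.8 and 34.0 in shMMP9. The groups were separated by a wide gap. ADAMTS12 (chromosome 5, 33523535 to 33892192, minus strand) fell by 1.89 (SE 0.0555, adjusted p = 1.14e-11, limma). ADAMTS7 went from 17.7 ± 2.45 to 11.9 ± 1.06 (log2 change -0.53, adjusted p = 0.000733, limma). The genome holds near-identical pseudogene copies of ADAMTS7, and how the counting treated their reads is not known here.

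ADAMTS6 and ADAMTS10 are close homologues linked to fibrillin microfibrils. ADAMTS6 (chromosome 5, 65148736 to 65481920, minus strand) was at 36.5, 27.8 and 31.3 in shControl and at 2.45, 2.34 and 2.96 in shMMP9. The shControl libraries varied among themselves, yet the lowest was far above every shMMP9 library, and the ratio of means was 12.3. ADAMTS6 fell by 3.19 (SE 0.115, adjusted p = 7.61e-11, limma). The fall was the largest of the tested members on this scale, but ADAMTS5, ADAMTS10 and ADAMTS19 had larger ratios of means.

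ADAMTS10 (chromosome 19, 8580242 to 8610735, minus strand) was weaker, with 136, 134 and 165 estimated reads in shControl and 7, 11 and 12 in shMMP9. Its means of 5.12 ± 0.934 and 0.372 ± 0.118 differed 13.8-fold. ADAMTS10 fell by 2.15 on the log2(scaled count + 1) scale (SE 0.142, adjusted p = 3.1e-08, limma), and the size depended on the setting, with -1.06 at a pseudocount of 4, -3.12 at a pseudocount of 0.25 and -3.76 by limma-voom.

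ADAMTS17 and ADAMTS19, homologues of each other, were both near the lower limit of the data, and the size of neither change is firm. ADAMTS19 had 24, 25 and 18 estimated reads in shControl and 3, 1 and 1 in shMMP9 (log2 change -0.75, adjusted p = 0.000152, limma). It passed the read minimum through shControl alone, and its size ran from -0.24 with a pseudocount of 4 to -3.45 by limma-voom. In depth-scaled reads its summed shMMP9 level was 0.07785 times that of shControl. The exact 95% interval of 0.0245 to 0.191 covers counting error only. ADAMTS17 was at 0.543 ± 0.236 and 1.16 ± 0.456 with overlapping groups (log2 change 0.48, adjusted p = 0.0276, limma). That call was lost without shControl replicate 1 (0.0957), shControl replicate 3 (0.0501), shMMP9 replicate 2 (0.131) or shMMP9 replicate 3 (0.0593).

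Of the homologues ADAMTS16 and ADAMTS18, the first was at 0.778 ± 0.242 and 1.09 ± 0.0900, a log2 change of 0.24 with a 95% interval of -0.05 to 0.54 (adjusted p = 0.139, limma). ADAMTS18 had too few reads for the test, with 8, 12 and 8 in shControl and 1 in each shMMP9 library, a depth-scaled ratio of 0.112 with an exact 95% interval of 0.0217 to 0.362.

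The procollagen N-proteinases, which trim the amino ends of fibrillar procollagens, differed in level, with ADAMTS2 close to the lowest listed values. ADAMTS3, which in addition activates vascular endothelial growth factor C, rose from 4.76 ± 0.513 to 7.05 ± 0.507 (log2 change 0.48, adjusted p = 0.00272, limma). ADAMTS2 fell from 0.730 ± 0.178 to 0.120 ± 0.0470 (log2 change -0.62, adjusted p = 0.000985, limma), a gene that passed the read minimum through shControl alone. Its size ran from -0.20 with a pseudocount of 4 to -2.45 by limma-voom. ADAMTS13, the plasma proteinase of von Willebrand factor, fell from 2.74 ± 0.410 to 1.40 ± 0.191 (log2 change -0.64, adjusted p = 0.00106, limma).

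The ADAMTS-like genes fell in 4 of 4 cases, against 32.5% of all genes, with a median of -1.58. ADAMTSL1, or punctin, a secreted matrix protein (chromosome 9, 17906563 to 18910950, plus strand), was at 33.9, 31.0 and 30.9 in shControl and at 4.63, 4.28 and 4.73 in shMMP9. The 3 libraries of each group lay close together. ADAMTSL1 fell by 2.57 (SE 0.0866, adjusted p = 3.84e-11, limma), a 7.02-fold ratio of means.

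ADAMTSL4 binds fibrillin microfibrils and is mutated in inherited displacement of the eye lens. It lies on chromosome 1 from 150549369 to 150560937 on the plus strand. Its scaled counts were 47.4, 48.8 and 49.1 in shControl and 7.18, 8.27 and 9.52 in shMMP9, without overlap. It fell by 2.41 (SE 0.0895, adjusted p = 9.2e-11, limma), a 5.82-fold ratio of means. This is the member with the 13 base stretch of the hairpin target printed above, and part of its reads is fractional beside those of the overlapping antisense gene ADAMTSL4-AS1, as when reads are divided between genes.

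ADAMTSL5, a microfibril-binding protein, fell from 5.26 ± 0.746 to 2.73 ± 0.640 (log2 change -0.75, adjusted p = 0.000638, limma). ADAMTSL3 was weaker and fell from 1.83 ± 0.181 to 0.735 ± 0.125 (log2 change -0.70, adjusted p = 0.000344, limma).

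Levels of different genes were compared per kilobase of exon, counting every base that lies in any annotated exon of the gene. This gave 16.2 kb for ADAM10 and 6.58 kb for ADAM15. The lengths of the transcripts expressed here were not measured, so the order and ranks of genes depend on this choice. In shControl, ADAM15 was highest at 23.2 ± 3.19 scaled counts per kilobase, ahead of ADAM9 at 17.9 ± 0.720, ADAMTS12 at 13.8 ± 0.697 and ADAM19 at 10.9 ± 0.485. These 4 were apart by more than their SDs. ADAMTSL4 (7.53 ± 0.147), ADAM10 (7.20 ± 0.141) and ADAM17 (6.90 ± 0.161) followed, each apart from the next by more than either SD. These SDs cover the spread between libraries and not any error of the exon lengths, so small gaps between genes are not firm.

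In shMMP9 the length-scaled order was led by ADAM19 at 19.7 ± 0.632. ADAM9 at 12.8 ± 0.207 and ADAM15 at 12.4 ± 0.655 did not differ beyond their spread. ADAM10 came next at 10.2 ± 0.5003 and ADAM17 at 6.15 ± 0.162. ADAM23 and ADAMTS12 shared the following place at 3.63 ± 0.0124 and 3.63 ± 0.144. ADAM19 thus moved from rank 4 to rank 1, ADAMTS12 from 3 to 7, ADAMTSL4 from 5 to 10, ADAMTS6 from 9 to 20 and ADAMTS10 from 17 to 29, while ADAMTS9 climbed from 21 to 11.

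**Figure D4:**
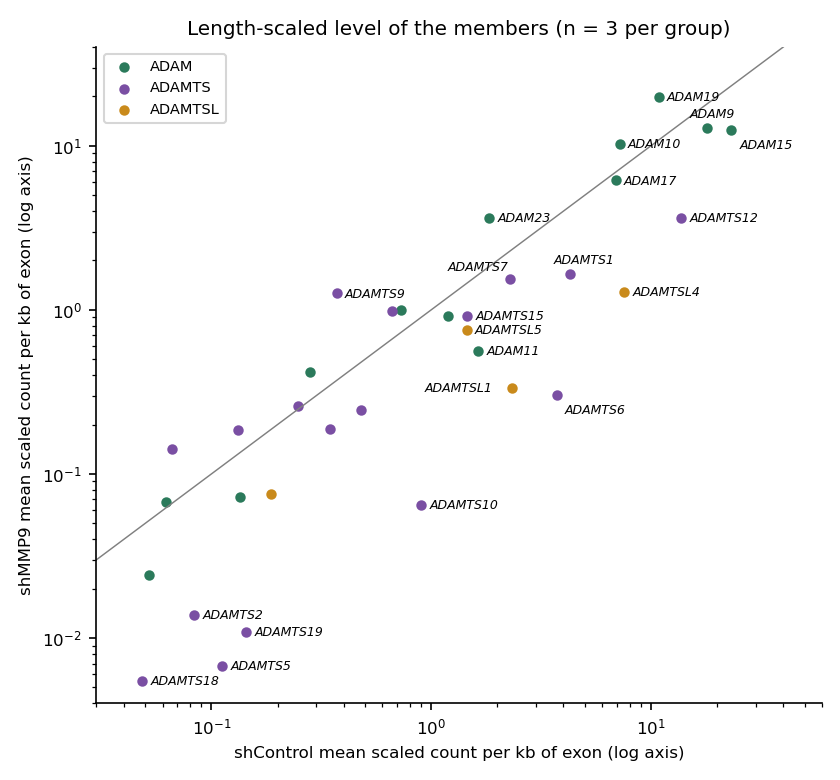
Mean scaled count per kilobase of exon in shControl (horizontal, log axis) against shMMP9 (vertical, log axis) for each member, n = 3 per group, coloured by branch, with the line of equal level. ADAM19, ADAM10, ADAM23 and ADAMTS9 lie above the line, and ADAMTS6, ADAMTS10, ADAMTSL1 and ADAMTSL4 far below it.

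Genes that mature, traffic or inhibit these enzymes were examined as a list of 16. In shMMP9, 9 rose (56.2%, against 25.0% of all genes), 5 fell (31.2%, against 32.5%) and 2 were not called, with a median log2 change of 0.35 beside -0.05 over all genes. TIMP3, the matrix-bound inhibitor of ADAM17 and several ADAMTS enzymes, was at 258, 297 and 278 in shControl and at 1260, 1257 and 1255 in shMMP9. Every shMMP9 library was far above the shControl range. TIMP3 rose by 2.18 (adjusted p = 3.2e-12, limma).

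TIMP1, which inhibits ADAM10, rose from 164 ± 6.82 to 489 ± 8.34 (log2 change 1.57, adjusted p = 1.44e-11, limma). FURIN, the convertase that removes the inhibitory prodomain of most family members, rose from 135 ± 13.03 to 252 ± 6.61 (log2 change 0.90, adjusted p = 6.07e-08, limma). FRMD8, which holds the iRhom and ADAM17 complex at the cell surface, rose from 57.5 ± 4.64 to 109 ± 4.76 (log2 change 0.91, adjusted p = 3.82e-08, limma). The iRhom genes, named after their values were seen, went opposite ways, with log2 changes of 0.56 for RHBDF1 and -0.57 for RHBDF2.

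Of 49 genes whose products are shed by ADAM proteinases, 42 could be tested, and 15 rose, 19 fell and 8 were not called. These are 35.7% and 45.2% of the list, against 25.0% and 32.5% of all genes, and the medians were -0.17 and -0.05. Both directions were seen among ligands of the epidermal growth factor receptor family. AREG, or amphiregulin, rose from 6.94 ± 0.225 to 35.9 ± 2.10 (log2 change 2.21, adjusted p = 7.19e-11, limma). TGFA, transforming growth factor alpha, rose from 136 ± 1.17 to 458 ± 2.37 (log2 change 1.74, adjusted p = 2.62e-12, limma). NRG1, or neuregulin 1, fell from 23.9 ± 0.391 to 3.82 ± 0.404 (log2 change -2.37, adjusted p = 2.21e-10, limma). HBEGF, another ligand of this receptor shed by ADAM17 and named after its value was seen, fell from 29.2 ± 1.17 to 14.8 ± 0.965 (log2 change -0.94, adjusted p = 2.02e-07, limma). PRNP, the prion protein, rose from 150 ± 6.29 to 376 ± 3.76 (log2 change 1.32, adjusted p = 6.8e-11, limma). Shedding itself was not measured.

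Of 19 matrix substrates and partners of the ADAMTS enzymes, 15 could be tested, and 5 rose, 8 fell and 2 were not called. These are 33.3% and 53.3% of the list, against 25.0% and 32.5% of all genes, and the medians were -0.19 and -0.05. BGN, the small proteoglycan biglycan, fell from 43.5 ± 2.44 to 6.59 ± 0.881 (log2 change -2.56, adjusted p = 8.47e-11, limma). The fibrillar collagen genes COL1A1 and COL5A1 fell as well, COL1A1 from 18.4 ± 1.85 to 3.15 ± 0.496 (log2 change -2.23, adjusted p = 2.99e-09, limma) and COL5A1 from 110 ± 6.03 to 38.7 ± 3.40 (log2 change -1.49, adjusted p = 5.42e-10, limma). ACAN, which encodes aggrecan, rose from 16.9 ± 1.46 to 36.3 ± 1.27 (log2 change 1.06, adjusted p = 5.55e-08, limma).

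**Figure D5:**
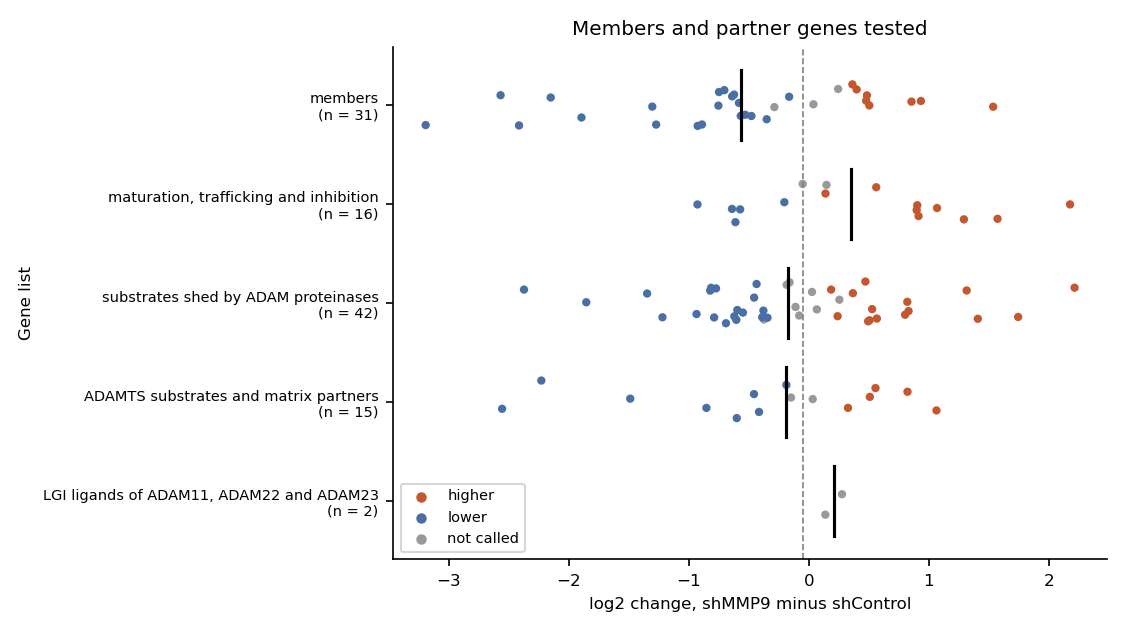
Log2 change (shMMP9 minus shControl, horizontal) of the tested members and of the tested genes of each partner list, 1 point a gene, coloured by call, with a bar at each list's median and a dashed line at the median of all genes. The members' median of -0.57 lies left of that line, and that of the maturation, trafficking and inhibition list, 0.35, lies right of it.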

How the data were processed

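RNA-seq of A375 cells with a control or an MMP9 hairpin gave 6 libraries, grouped by the labels. STAR 2.6.1d, Partek and the hg38 build are named in the submitters' processing notes, whereas for the counting method, the strand setting and the filter the sources used here give nothing. The deposited values are log2(scaled count + 1): their linear 75th percentile was the same in every library, and they were whole multiples of a step for 64.6 to 67.7% of genes per library (within 0.01 reads). That step gave estimated reads. The lowest value is 1 step, so no gene is listed at 0, and every gene has 11 reads or more in some library.

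The design named another test for raw counts. As the table holds none, limma 3.58.1 (R 4.3.3, empirical Bayes with a variance trend) was fitted to the deposited log2 values (pseudocount 1). A gene was tested with 10 or more reads, scaled to median depth, in 3 libraries and at least 15 overall (17194 genes, 1345 left out). Benjamini-Hochberg adjustment ran over these, with a threshold of 0.05. The fit was tested on simulated data. Replicates of a group differed by more than sampling noise (chi-square per gene 2.51 to 14.15). Coordinates and exon lengths come from GENCODE 29. Depth intervals cover counting error only.

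Members and lists were chosen with earlier results of these data known. Values are given by library for members called with a log2 change of 1 or more and a mean scaled count of 5 or more, and for the 6 most abundant, and up to 4 genes per partner list are named by smallest adjusted p. Figures were drawn with matplotlib 3.10.9. Alternatives were the replicate number as a block, leaving out each library, other scalings, filters, pseudocounts and thresholds, limma-voom and no variance trend.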

Additional observations from a re-analysis of the deposited data

How the results depend on the processing

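All alternatives named here were chosen with earlier results of these data known. Over 16 alternatives for the tested members, 462 of 483 values kept direction and call, 17 lost and 3 gained a call, and 1 reversed: ADAMTS4, not called in either case, ran from -0.037 (without shMMP9 replicate 2) to 0.12 as libraries were left out. Of the 28 called members, 25 kept their call under every alternative run for them, and the exceptions were ADAM8, ADAM17 and ADAMTS17. Members called higher ranged from 6 to 8 and lower from 19 to 21 when libraries were left out one at a time, and MMP9 from -0.75 to -0.63. With a minimum mean scaled count of 5, 12 members were lower, of the 18 that could be tested, and 3 matrix substrates were higher. Without a variance trend, 1 LGI ligand was called higher. Across all genes, 4304 rises and 5584 falls became 4949 and 4946 with median-of-ratios scaling. With total reads as the scale they were 4988 and 4898, and in both cases 8 members were higher and 19 lower. No label states a pairing by replicate number. Correlations of same-numbered deviations were 0.0402, -0.130 and -0.0258, and those of other pairs ran from -0.122 to 0.169. With 3 libraries per group, these values can neither show nor exclude a pairing. With the replicate number as a block 7 members were higher and 20 lower. Members under about 10 reads per library are limited by depth.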

Other observations

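Some other proteins share the thrombospondin type 1 repeats of the ADAMTS family without matching its names. The following 4 were picked after their values were seen and carry no weight as a set. PAPLN, or papilin, went from 12.0 ± 1.56 in shControl to 5.28 ± 0.339 in shMMP9 (SD, n = 3), a log2 change of -1.04 (SE 0.112, adjusted p = 3.61e-06, limma). THSD4, also named ADAMTSL6, fell from 23.3 ± 1.25 to 15.96 ± 1.005 (log2 change -0.52, adjusted p = 8.21e-05, limma). The transmembrane proteins THSD1 and THSD7A also carry such repeats. THSD1 fell from 2.96 ± 0.922 to 0.399 ± 0.276 (log2 change -1.49, adjusted p = 1.54e-05, limma), and THSD7A from 2.04 ± 0.455 to 0.418 ± 0.0844 (log2 change -1.09, adjusted p = 2e-05, limma).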
